A study of Anas platyrhynchos and Gallus gallus and Anas rubripes with 21 samples.

Results

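Interferon regulatory factors (IRFs) are transcription factors that bind a shared DNA element in the promoters of interferon genes and of the genes that interferons induce. Cells use them to pass on signals from sensors of viral and bacterial nucleic acids and from interferon receptors, and several of them also direct how blood cells mature. In a sensory ganglion their transcripts can come from neurons, from glia or from resident immune cells, and in RNA of whole ganglia fewer cells of a type and less RNA per cell cannot be told apart. The family was followed here in trigeminal ganglia, where the touch, temperature and pain neurons of the face and bill have their cell bodies, and was set beside *PIEZO2*, which encodes the mechanically gated ion channel of touch neurons.

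The factors were chosen by name as *IRF1*, *IRF2*, *IRF4*, *IRF5*, *IRF7*, *IRF8* and *IRF10*, after correlations with *PIEZO2* and ratios of ducks to chicken in these same data had been seen. Their values are therefore given as a description, with no test. Of the 7 symbols, 6 had a row among the 20451 genes of the table, and *IRF10* was not analysed here. All 6 stood in both the duck and the chicken annotation. Of the 6, 3 averaged at least 1 RPKM over the species (reads relative to the length of the transcript and the size of the library), as did 12497 genes in all.

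The ganglia came from 21 late embryos, 3 for each of 7 species, taken once the embryo had broken the inner shell membrane. The ducks were Pekin duck (embryonic days 25 to 26), lesser scaup (days 25 to 26), black duck (days 21 to 22), ruddy duck (days 30 to 31), wood duck (days 28 to 31) and harlequin duck (days 28 to 29). The bird they were set against was chicken (days 19 to 21), a visual forager. According to the paper, every duck uses touch to some extent, but wood duck often pecks for food by sight. For each gene the table gives 1 number a species, averaged by the authors over 3 birds, so the spread between birds and the depth of each bird are unknown and every SD below is the spread between the 6 duck species. The comparison asked which genes follow the level of *PIEZO2* across birds that rely on touch to different degrees.

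The summed level of 7 sensory neuron markers was 2267 to 2774 RPKM in ducks and 2768 RPKM in chicken, and that of 4 Schwann and satellite cell markers 1116 to 2452 RPKM in ducks and 2226 RPKM in chicken. Both marker groups that define a ganglion were thus present in all 7 species. Leukocyte markers summed to 31.7 to 101 RPKM in ducks and 98.1 RPKM in chicken. Muscle markers summed to 6.18 to 169 RPKM in ducks, with the highest sum in black duck, and to 18.4 RPKM in chicken. RPKM values of a species summed to between 340453 and 415033, and a median-ratio scaling gave chicken and ruddy duck factors of 0.858 and 0.859, against 0.969 to 1.02 in the other 5 species.

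*PIEZO2* (duck gene 101804683, chicken gene 421052) set the order of the species. Its level was 102 RPKM in Pekin duck, 101 in lesser scaup, 99.7 in black duck, 92.4 in ruddy duck, 81.5 in wood duck and 68.3 in harlequin duck, against 48.2 RPKM in chicken. The 3 highest ducks lay within a few percent of each other, and with no spread between birds these neighbours cannot be put in an order. The place of ruddy duck also depended on how the species were scaled, as given below.

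*IRF1* (duck gene 101799633, chicken gene 396384), an activator induced by interferon gamma that switches on antiviral and antigen presentation genes, was higher in ducks than in chicken and followed *PIEZO2* species by species. The *IRF1* level was 4.77 RPKM in Pekin duck, 4.26 in lesser scaup, 4.01 in black duck, 3.60 in ruddy duck, 3.22 in wood duck and 2.56 in harlequin duck, against 1.37 RPKM in chicken. In the RPKM values as deposited, the order of the 7 means was that of *PIEZO2*. The order of the 3 highest ducks in *PIEZO2* is not secured, nor is the place of ruddy duck. For *IRF1*, chicken lay below all 6 ducks. The ducks averaged 3.74 ± 0.786 RPKM (SD, n = 6 species), 2.73-fold the chicken level, and the lowest duck was 1.87-fold chicken. On the log2(RPKM + 1) scale, which understates the change of low genes, the ratio of ducks to chicken was 1.00, which lies just under 2-fold before rounding, beside a median of 0.22 over all genes averaging at least 1 RPKM. It exceeded that of 79.7% of those genes. A chicken value below all 6 ducks was common, at 35.9% of them, and a duck mean at least 2-fold above chicken was found for 20.3%, so the direction of *IRF1* alone did not set it apart.

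**Figure D1:**
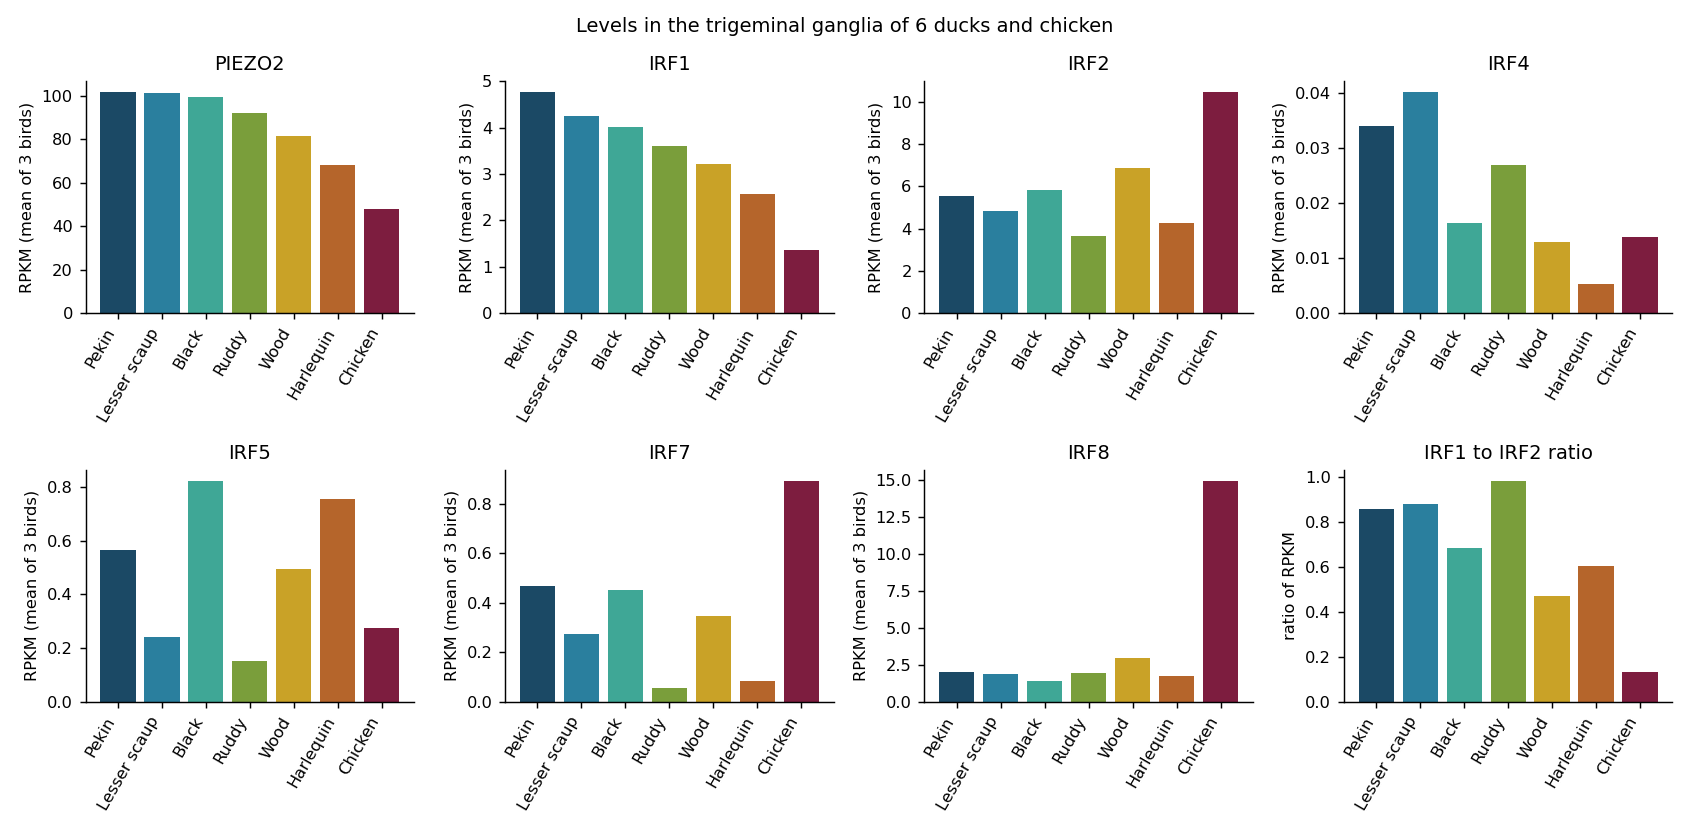
Levels of *PIEZO2* and of the 6 interferon regulatory factors in trigeminal ganglia, with 1 bar per species (RPKM, the authors' mean of 3 birds, each vertical axis starting at 0 with its own scale) and, in the last panel, the ratio of *IRF1* to *IRF2* RPKM. The bars of *IRF1* step down in the order of those of *PIEZO2*, chicken is highest for *IRF2*, *IRF7* and *IRF8*, and the ratio is lowest in chicken at 0.131.

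Pearson's *r* of *IRF1* with *PIEZO2* was 0.98 over the 7 species, with a Spearman's rho of 1. The *r* ranked 3 among 12496 genes, and rho was 1 for 3 genes. An *r* of at least 0.9 in size was found for 1.54% of genes, 102 of them positive and 91 negative. Among the 6 ducks alone the *r* of *IRF1* was 0.95 and rho was again 1. When harlequin duck and chicken were left out, being farthest from the median *PIEZO2* level, *r* was 0.90 over the 5 that remained. These points are means of related species that share 1 joined annotation, and both genes of a point come from the same 3 birds.

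*IRF1* differed more between species than *PIEZO2* did. Its highest level was 3.49-fold its lowest, against 2.11-fold for *PIEZO2*. The slope of log2 *IRF1* on log2 *PIEZO2* was 1.52 over the 7 species and 1.35 over the ducks, where 1 would be a constant share. As a share of the *PIEZO2* level, *IRF1* was 4.69% in Pekin duck, 4.21% in lesser scaup, 4.03% in black duck, 3.89% in ruddy duck, 3.95% in wood duck and 3.75% in harlequin duck, against 2.84% in chicken. The share was thus highest in Pekin duck and lowest in chicken. Around a straight line through the 7 points, the largest departure was 0.422 RPKM, in Pekin duck, which lay above the line. The level itself was middling, above that of 48.9% to 57.8% of all genes in ducks and 42.2% in chicken.

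The *r* of *IRF1* depended on how the species were scaled against each other. After division by the median ratio it was 0.97, with a rho of 0.89, and among the ducks 0.93, with a rho of 0.83. After quantile normalization it was 0.896, with a rho of 0.75, and among the ducks 0.79, with a rho of 0.60. The shared order of the species thus held for the RPKM values as deposited and was no longer exact under either scaling. The order of *PIEZO2* itself changed. With a factor of 0.859, against 1.01 in Pekin duck, ruddy duck became its highest species after division by the median ratio. By rank within a species, *IRF1* was highest in ruddy duck, above 57.8% of all genes, against 56.6% in Pekin duck. Leaving out ruddy duck, which had 1 of the 2 lowest factors, gave an *r* of 0.99. Embryonic day differed between species and cannot be told apart from species. All embryos were taken at the same step before hatching, once the inner shell membrane was broken, so a later day need not mean a later stage. The *r* with the middle of the stated days was 0.24 for *IRF1* and 0.24 for *PIEZO2* over 7 species, and -0.57 for *IRF1* and -0.59 for *PIEZO2* over the ducks.

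**Figure D2:**
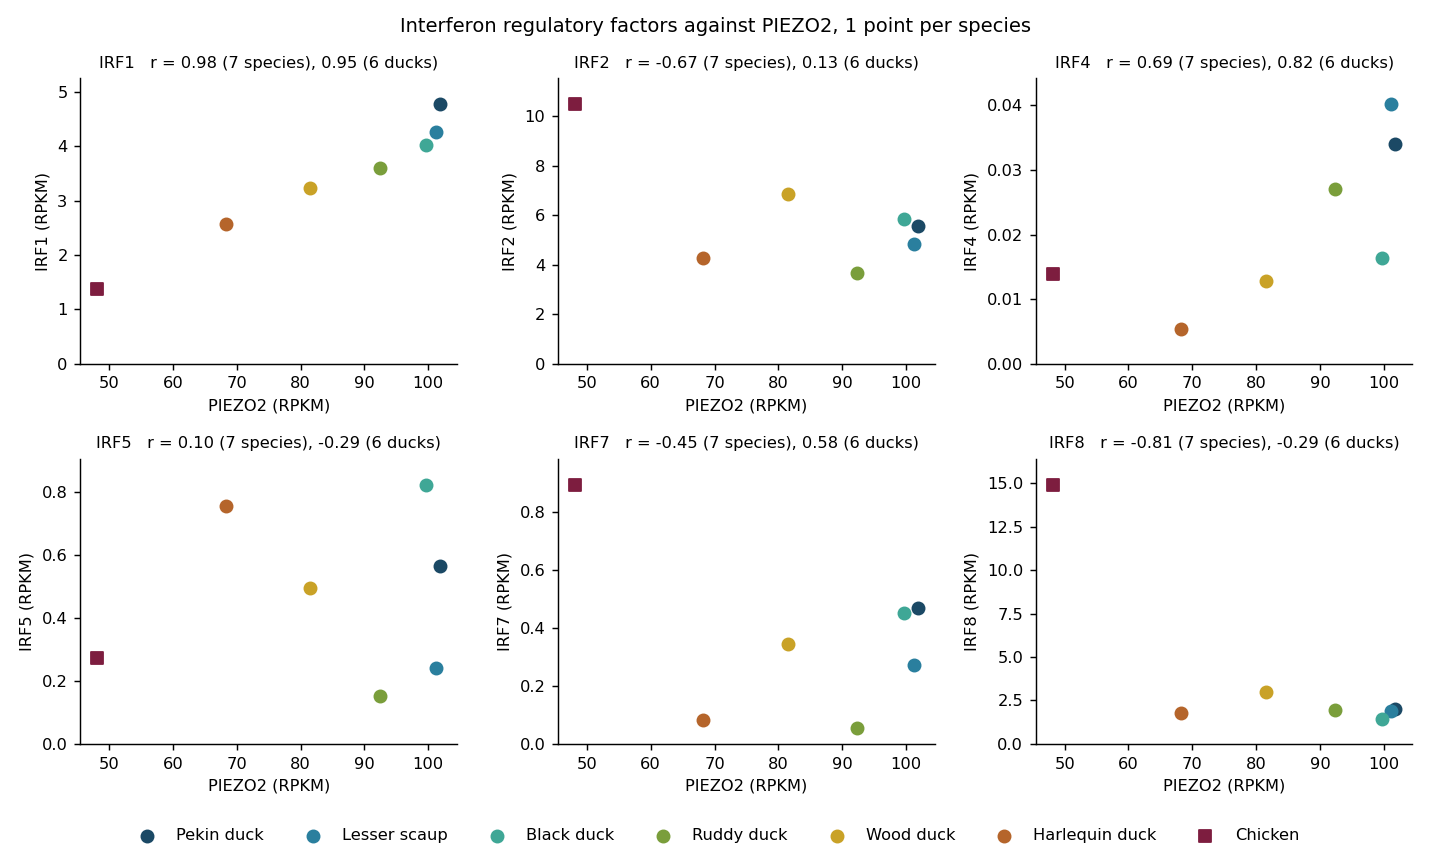
Level of each interferon regulatory factor (vertical axis, RPKM) against that of *PIEZO2* (horizontal axis, RPKM, not starting at 0), with 1 point per species, circles for the 6 ducks and a square for chicken. The points of *IRF1* lie close to a line both with and without chicken, while in the panels of *IRF2*, *IRF7* and *IRF8* the chicken point stands apart at the upper left.

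In the RPKM values as deposited, none of the other 5 factors had an *r* with *PIEZO2* of at least 0.9 in size, so *IRF1* was 1 of 6 past that size. The share was 1.54% of all genes averaging at least 1 RPKM and 1.485% of genes with no filter. Of the 6 factors, 3 averaged below 1 RPKM. The factors were chosen with such correlations seen, so the count is a description only. Leaving out harlequin duck took *IRF8* past it, at -0.95. After quantile normalization neither *IRF1*, at 0.896, nor *IRF4*, at 0.88, passed it, and *IRF1* no longer stood apart from *IRF4*.

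*IRF2* (duck gene 101789879, chicken gene 396115), which occupies the same DNA element as *IRF1* and is best known as its antagonist, was higher in chicken. The *IRF2* level was 5.57 RPKM in Pekin duck, 4.84 in lesser scaup, 5.85 in black duck, 3.66 in ruddy duck, 6.85 in wood duck and 4.25 in harlequin duck, against 10.5 RPKM in chicken. Chicken lay above all 6 ducks, whose mean was 5.17 ± 1.16 RPKM (SD, n = 6 species), and the chicken level was 2.03-fold that mean. With the pseudocount of 1 RPKM the log2 ratio of ducks to chicken was -0.89, short of 2-fold, and with a pseudocount of 0.1 RPKM it was -1.004, just past it. After median-ratio scaling, with the pseudocount of 1 RPKM, the ratio was -1.08. Its *r* with *PIEZO2* was -0.67 over the 7 species and 0.13 over the ducks. It was -0.37 without chicken and harlequin duck and -0.89 without harlequin duck alone, so both species bear on its sign and size.

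Set against each other, *IRF1* and *IRF2* gave a ratio that ranged more widely over the 7 species than either gene. This follows from chicken being lowest for *IRF1* and highest for *IRF2*, and the activity of the pair was not tested. The ratio of *IRF1* to *IRF2* RPKM was 0.856 in Pekin duck, 0.880 in lesser scaup, 0.686 in black duck, 0.983 in ruddy duck, 0.470 in wood duck and 0.602 in harlequin duck, against 0.131 in chicken. *IRF2* was the higher of the pair in all 7 species, by 1.02-fold to 2.13-fold in ducks and by 7.65-fold in chicken. Among the ducks the ratio was highest in ruddy duck and did not follow the order of *PIEZO2*.

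*IRF7* (duck gene 101795904, chicken gene 396330) is the main inducer of type I interferon in birds, which lack the *IRF3* of mammals. The *IRF7* level was 0.468 RPKM in Pekin duck, 0.273 in lesser scaup, 0.453 in black duck, 0.0562 in ruddy duck, 0.346 in wood duck and 0.0839 in harlequin duck, against 0.894 RPKM in chicken. Chicken was again above all ducks, at 1.91-fold the highest of them and 3.19-fold their mean of 0.280 RPKM. Ruddy and harlequin duck stood well below the other 4. The log2 ratio of ducks to chicken was -0.57 with the pseudocount of 1 RPKM, which outweighs values this low. Its *r* with *PIEZO2* was -0.45 over the 7 species and 0.58 over the ducks. *IRF7* was also the factor with the most negative *r* with embryonic day, at -0.85 over the 7 species and -0.72 over the ducks. The part of embryonic day in its level was not tested.

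*IRF5* (duck gene 101798093, chicken gene 430409), which acts below Toll-like receptors and drives inflammatory cytokines in macrophages, showed no split between ducks and chicken. The *IRF5* level was 0.566 RPKM in Pekin duck, 0.242 in lesser scaup, 0.823 in black duck, 0.153 in ruddy duck, 0.495 in wood duck and 0.754 in harlequin duck, against 0.274 RPKM in chicken. The chicken value lay within the duck range, above lesser scaup and ruddy duck. Its *r* with *PIEZO2* was 0.10 over the 7 species and -0.29 over the ducks.

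*IRF4* (duck gene 101800773, chicken gene 374179), a factor of lymphocyte and plasma cell maturation, was barely present. The *IRF4* level was 0.0340 RPKM in Pekin duck, 0.0402 in lesser scaup, 0.0164 in black duck, 0.0270 in ruddy duck, 0.0128 in wood duck and 0.00537 in harlequin duck, against 0.0139 RPKM in chicken. These levels exceeded those of 18.0% to 24.2% of all genes in ducks and 16.6% in chicken. Its *r* with *PIEZO2* was positive, at 0.69 over the 7 species and 0.82 over the ducks, but at such levels a few reads can set the value of a species, and the number of reads is unknown.

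*IRF8* (duck gene 101798500, chicken gene 396385), which in mouse is needed for macrophages, microglia and dendritic cells to develop, had the widest gap between ducks and chicken of the 6 factors. The *IRF8* level was 1.99 RPKM in Pekin duck, 1.90 in lesser scaup, 1.43 in black duck, 1.94 in ruddy duck, 2.98 in wood duck and 1.76 in harlequin duck, against 14.9 RPKM in chicken. The ducks averaged 2.00 ± 0.521 RPKM (SD, n = 6 species), with wood duck the highest, and chicken was 7.47-fold their mean and 5.01-fold the highest of them. The log2 ratio of ducks to chicken was -2.41, lower than that of all but 2.90% of genes. In the RPKM values as deposited, *IRF8* was the only factor past 2-fold with the pseudocount of 1 RPKM. With a pseudocount of 0.1 RPKM, *IRF1*, *IRF2* and *IRF7* passed it too. A duck mean at least 2-fold below chicken was found for 12.1% of genes. *IRF8* stood above 43.8% to 52.2% of all genes in ducks and above 77.8% in chicken. Its *r* with *PIEZO2* was -0.81 over the 7 species, with a rho of -0.32, and -0.29 over the ducks, with a rho of 0.09. It was -0.85 when both chicken and harlequin duck were left out, so it depended on harlequin duck as well as on chicken.

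In all, chicken lay above all 6 ducks for *IRF2*, *IRF7* and *IRF8*, 3 of the 6 factors. The share was 26.0% of genes averaging at least 1 RPKM and 32.9% of genes above 0 in any species. With 6 factors, 3 is near that background, and nothing is read from the count.

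**Figure D3:**
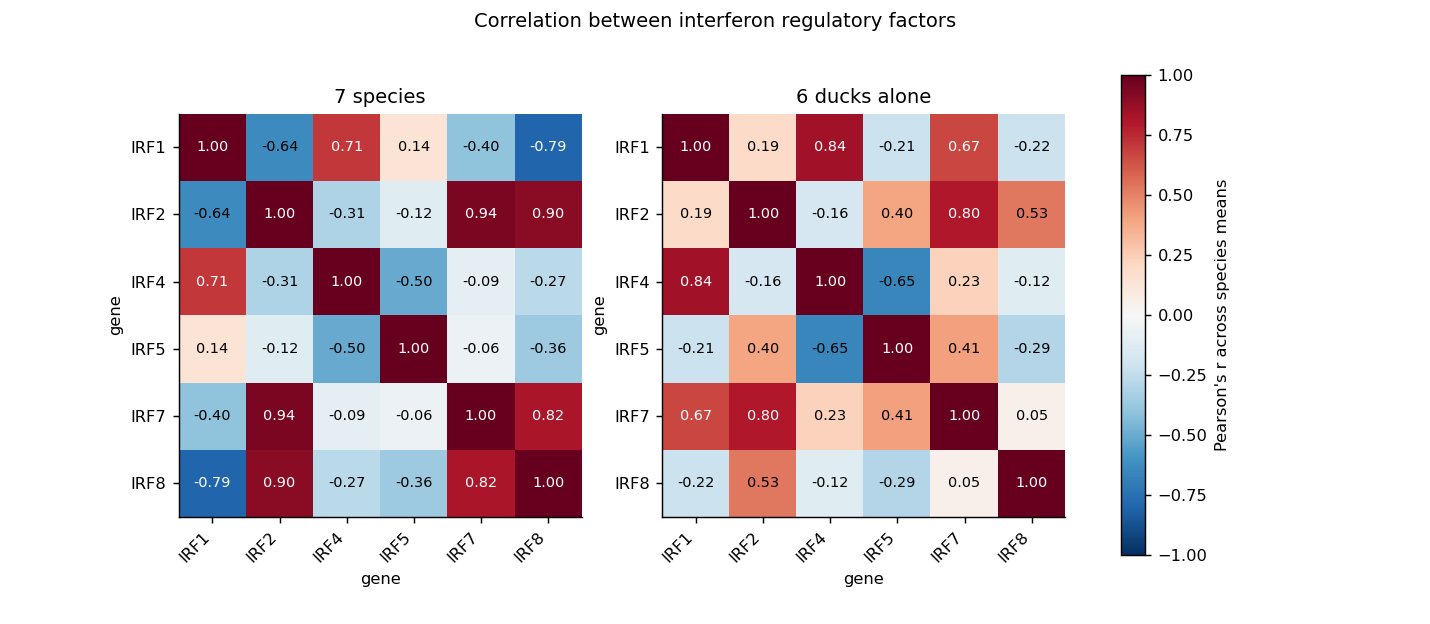
Pearson's *r* between each pair of the 6 interferon regulatory factors, over the 7 species means (left) and over the 6 duck means (right), on a color scale from -1 to 1. *IRF2*, *IRF7* and *IRF8* form a block of high values on the left, where chicken is included, and most of that block is paler on the right.

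Between the factors themselves, the pairs with the highest *r* over the 7 species were *IRF2* with *IRF7* at 0.94, *IRF2* with *IRF8* at 0.90 and *IRF7* with *IRF8* at 0.82. Over the ducks, where chicken no longer sets the slope, these were 0.80, 0.53 and 0.05. *IRF1* had an *r* of -0.79 with *IRF8*, -0.64 with *IRF2* and -0.40 with *IRF7* over the 7 species, and 0.67 with *IRF7* and 0.19 with *IRF2* over the ducks. Its *r* with *IRF4* was 0.71 over the 7 species and 0.84 over the ducks. Thus, in the RPKM values as deposited, no other factor followed *IRF1* as closely as *PIEZO2* did. The factors were chosen after correlations with *PIEZO2* had been seen, so this is a description only.

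The genes most like *IRF1* over the 7 species were taken by Pearson's *r* among genes averaging at least 1 RPKM. *FAF1*, a protein that binds ubiquitin and the death receptor Fas, had an *r* of 0.99 with *IRF1*, *GALC*, the lysosomal enzyme that breaks down galactosylceramide of myelin, 0.98, and *ST8SIA3Z*, a sialyltransferase listed in the chicken annotation alone, 0.98. In all, 17 genes had an *r* of 0.95 or more with *IRF1*.

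*IRF9* is in mammals the DNA-binding part of the complex that answers type I interferon. The row under that symbol had 0.0414 to 0.108 RPKM in ducks and 0.357 RPKM in chicken, but comes from the chicken annotation alone. Whether that row is the counterpart of the mammalian gene was not tested. The corepressors named for binding *IRF2* were more abundant. *IRF2BP2* averaged 10.6 RPKM in ducks and 17.3 RPKM in chicken, from the chicken annotation alone. *IRF2BPL* averaged 12.2 RPKM in ducks and 17.8 RPKM in chicken, from the duck annotation alone, and *IRF2BP1* was not analysed here. The *r* of *IRF2BP2* with *PIEZO2* was -0.81 over the 7 species, -0.55 over the ducks and 0.02 without chicken and harlequin duck. That of *IRF2BPL* was -0.88 over the 7 species, -0.73 over the ducks and -0.19 without both. The annotation mattered for such rows, since the median log2 ratio between ducks and chicken was 0.26 for genes in both annotations, -0.78 for those in the chicken annotation alone and 0.76 for those in the duck annotation alone.

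Upstream of the factors, 12 of 19 sensors and adaptors averaged at least 1 RPKM. Of these 12, 3 were at least 2-fold higher in ducks and 1 was lower, beside 20.3% and 12.1% of all genes, and the median log2 ratio was 0.27, beside 0.22 for all genes. *DDX58* encodes RIG-I, a sensor of viral RNA that ducks carry and chickens are known to lack. It is listed at 0 in chicken, in a row from the duck annotation alone, and had 6.94 to 17.9 RPKM in ducks. *TRAF3*, an adaptor that passes signals from RIG-I-like and Toll-like receptors on to the kinase TBK1, had 18.7 to 31.4 RPKM in ducks and 7.06 RPKM in chicken, a log2 ratio of 1.80. *TBK1*, which phosphorylates IRFs such as *IRF7*, had 12.0 to 25.2 RPKM in ducks and 6.70 RPKM in chicken, a log2 ratio of 1.27. In the other direction, *MB21D1*, the DNA sensor cGAS, had 0.902 to 2.31 RPKM in ducks and 6.15 RPKM in chicken, a log2 ratio of -1.43.

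Of 15 interferon receptor and JAK-STAT genes, 12 averaged at least 1 RPKM, of which 1 was at least 2-fold higher in ducks and 3 were lower, beside 20.3% and 12.1% of all genes, with a median log2 ratio of -0.39, beside 0.22. *TYK2*, a kinase bound to the type I interferon receptor, was higher in ducks, at 24.2 to 44.2 RPKM, against 2.15 RPKM in chicken. Chicken was highest for the 3 genes that were lower in ducks, which their choice by a low duck mean makes likely. Chicken lay above all 6 ducks for 26.0% of genes averaging at least 1 RPKM. *USP18*, which shuts off the type I interferon receptor, had 0.181 to 1.97 RPKM in ducks and 10.7 RPKM in chicken. Its duck mean was 0.719 RPKM, so it averaged at least 1 RPKM only through chicken, and nothing is read from its direction. *STAT3*, a transcription factor that answers cytokines of the interleukin 6 family, had 10.1 to 29.9 RPKM in ducks and 58.2 RPKM in chicken. *IL10RB*, a receptor chain for interleukin 10 and interferon lambda, had 2.96 to 10.4 RPKM in ducks and 15.7 RPKM in chicken. Among the most abundant genes were a kinase shared by all interferon receptors and the chains of the interferon gamma receptor. The kinase, *JAK1*, had 48.5 to 109 RPKM in ducks and 40.0 RPKM in chicken. *IFNGR1* had 21.4 to 72.0 RPKM in ducks and 27.1 RPKM in chicken, and *IFNGR2* had 22.5 to 44.0 RPKM in ducks and 30.2 RPKM in chicken. Both chains start the signal known to induce *IRF1*. Chicken lay within the duck range for both, but only ruddy duck was below it, at 21.4 and 22.5 RPKM. The part of this signal in the *IRF1* level was not tested.

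Downstream, 16 of 28 interferon- and *IRF1*-induced genes averaged at least 1 RPKM, of which 2 were at least 2-fold higher in ducks and 3 were lower, beside 20.3% and 12.1% of all genes. Both counts are near that background. Their median log2 ratio was 0.38, beside 0.22 for all genes, and their median *r* with *PIEZO2* was 0.27, beside 0.14 for all genes. Of the 2 higher genes, *SAMD9L*, an antiviral factor, had 0.968 to 6.68 RPKM in ducks and 0.210 RPKM in chicken. *CASP1*, the inflammasome protease, had 2.12 to 30.9 RPKM in ducks and 6.14 RPKM in chicken, so the groups overlapped. Of the 3 lower genes, *IFIT5*, which binds viral RNA, had 0.687 to 2.00 RPKM in ducks and 12.7 RPKM in chicken. *NOS2*, the inducible nitric oxide synthase, had 0.531 to 1.23 RPKM in ducks and 5.09 RPKM in chicken. Its duck mean was 0.858 RPKM, so it too averaged at least 1 RPKM only through chicken, and nothing is read from its direction. *IL15*, a cytokine of natural killer cells, had 0.523 to 8.90 RPKM in ducks and 7.88 RPKM in chicken, again with an overlap. *B2M*, the light chain of MHC class I and the most abundant of the list, had 47.3 to 149 RPKM in ducks and 58.4 RPKM in chicken. No gene of the list had an *r* with *PIEZO2* of at least 0.9 in size, the size that *IRF1* passed. That size was found for 1.54% of all genes, so a count of 0 is near background and nothing is read from it.

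**Figure D4:**
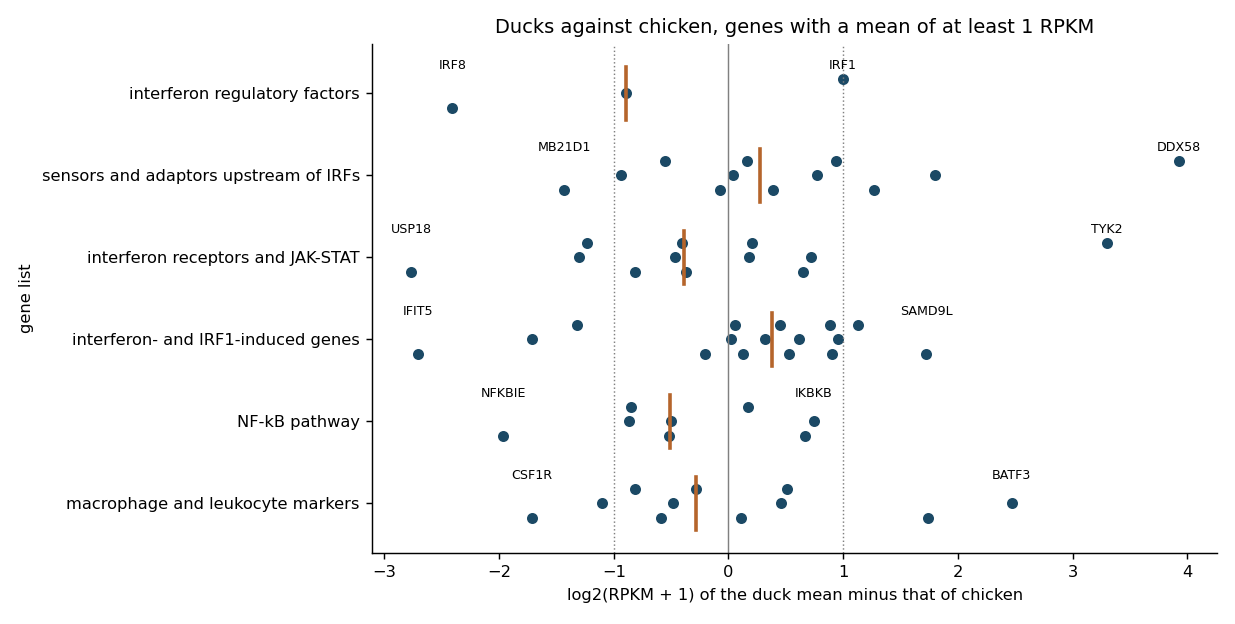
Log2 ratio of ducks to chicken (horizontal axis, log2(RPKM + 1) of the mean of 6 ducks minus that of chicken) for genes averaging at least 1 RPKM, in rows by gene list, with 1 point per gene, an orange bar at each list's median and dotted lines at 2-fold. *IRF8* lies far to the left at -2.41 and *IRF1* on the right dotted line, and each of the other lists spreads to both sides of 0.

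In the NF-kB pathway, which acts with IRFs on the same promoters, 8 of 9 genes averaged at least 1 RPKM. None of the 8 was at least 2-fold higher in ducks and 1 was lower, beside 20.3% and 12.1% of all genes. The lower gene was *NFKBIE*, an inhibitor that holds NF-kB in the cytoplasm, at 1.17 to 2.67 RPKM in ducks and 10.5 RPKM in chicken. The most abundant were the kinases that release NF-kB, *CHUK*, at 21.6 to 37.4 RPKM in ducks and 17.8 RPKM in chicken, and *IKBKB*, at 16.3 to 28.5 RPKM in ducks and 13.2 RPKM in chicken. The median log2 ratio of the list was -0.51, beside 0.22 for all genes. Its median *r* with *PIEZO2* over the 7 species was -0.59, beside 0.14 for all genes. That median includes chicken. Over the ducks alone the *r* of these genes ran from -0.28 for *REL* to 0.76 for *NFKBIE*, which had -0.72 over the 7 species. No gene of this or of the other 4 lists had an *r* of at least 0.9 in size, beside 1.54% of all genes. The value largest in size was -0.89, for *IFNAR1* of the interferon receptor list.

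Because *IRF8* marks macrophages and related cells, leukocyte genes were set beside it. Of 22 genes of the macrophage and leukocyte list, 11 averaged at least 1 RPKM, of which 2 were at least 2-fold higher in ducks and 2 were lower, beside 20.3% and 12.1% of all genes, so the counts are near background. The median log2 ratio was -0.29, beside 0.22 for all genes. Of the lower genes, *CSF1R*, the receptor that macrophages need to survive, had 2.65 to 7.53 RPKM in ducks and 19.4 RPKM in chicken. *CD74*, the invariant chain of MHC class II, had 6.63 to 14.0 RPKM in ducks and 25.9 RPKM in chicken. Neither overlapped between ducks and chicken, which their choice by a low duck mean makes likely. The share of genes with chicken above all 6 ducks was 26.0%. Of the higher genes, *BATF3*, a partner of *IRF8* in mouse dendritic cells, had 2.40 to 37.3 RPKM in ducks, with the highest level in ruddy duck, and 1.15 RPKM in chicken. *BLNK*, an adaptor of the B cell receptor, had 3.93 to 7.35 RPKM in ducks and 0.959 RPKM in chicken. *PTPRC*, the pan-leukocyte antigen CD45, had 0.811 to 1.55 RPKM in ducks and 2.85 RPKM in chicken. Genes of this list thus lay on both sides of 2-fold. Other B cell genes of the list were near 0, with *CD79B* at most 0.0463 RPKM and *PAX5* at most 0.0227 RPKM in any species. Which cells *BLNK* and *BATF3* came from was not tested.

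The 13 leukocyte markers were all above 0 in all 7 species, and chicken was highest for 6 of them, beside 32.9% of genes above 0 in any species. The *r* of their summed level with *IRF8* was 0.58, and 0.86 without *LY86*, whose level of 16.1 to 76.8 RPKM in ducks and 57.5 RPKM in chicken was the largest single part of the sum. *LY86* was set aside after its values were seen. Both *r* values include chicken, whose *IRF8* level of 14.9 RPKM stood far from the 1.43 to 2.98 RPKM of the ducks. That 1 species therefore weighs heavily on them. Without *LY86* the sum was 15.7 to 27.3 RPKM in ducks and 40.6 RPKM in chicken, a smaller gap than that of *IRF8*. Per unit of a leukocyte gene, *IRF8* was still higher in chicken. The ratio of *IRF8* to *PTPRC* was 1.25 to 2.81 in ducks and 5.24 in chicken, that to *SPI1*, the myeloid partner of *IRF8*, 0.505 to 1.56 in ducks and 4.19 in chicken, and that to *CSF1R* 0.252 to 0.664 in ducks and 0.769 in chicken. The *r* of the leukocyte sum with *IRF1* was -0.37, or -0.41 without *LY86*. The part of immune cell number in either result was not tested.

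**Figure D5:**
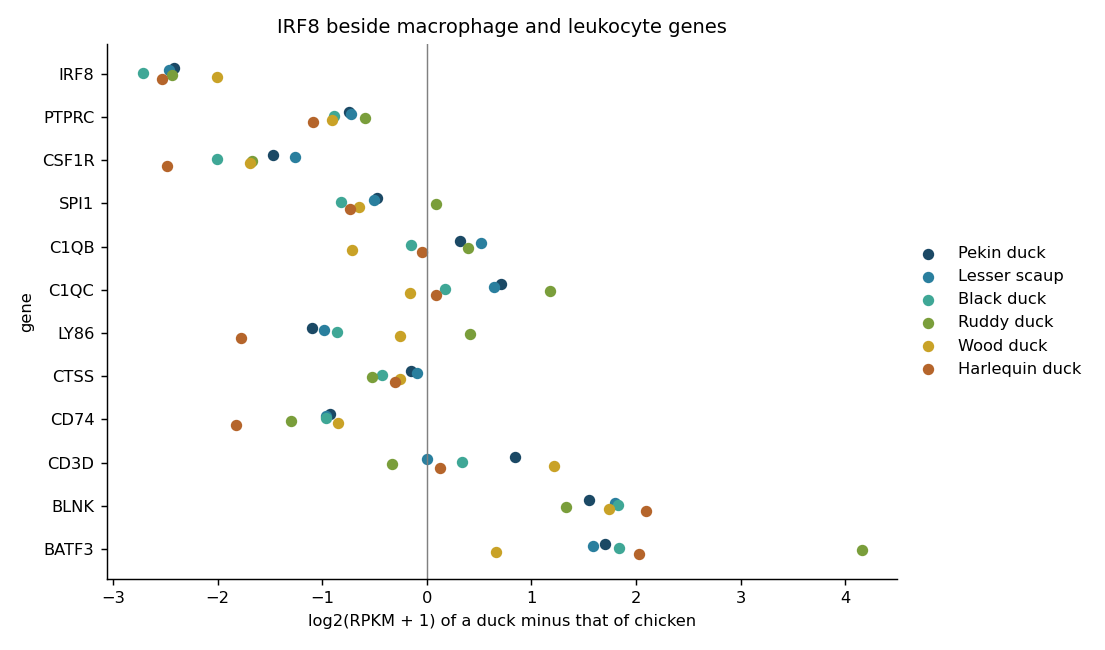
Log2(RPKM + 1) of each duck minus that of chicken (horizontal axis) for *IRF8* and for macrophage and leukocyte genes averaging at least 1 RPKM (rows), with 1 point per duck species. All 6 points of *IRF8* lie left of 0, as do those of *PTPRC*, *CSF1R*, *CTSS* and *CD74*, while those of *BLNK* and *BATF3* lie right of 0.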

How the data were processed

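RNA of trigeminal ganglia from 21 late embryos was sequenced from strand-specific mRNA libraries, 3 for chicken and 3 for each of 6 ducks. Per the study's methods and processing notes, trimming used Trimmomatic 0.36, alignment to a duck (BGI_duck_1.0) and a chicken (GRCg6a) genome used STAR 2.5.4b, and counting used featureCounts (Subread 1.6.2), with RPKM from edgeR 3.22.3. The authors deposited RPKM as the mean of 3 birds per species, in a table joined by gene symbol, so no test across birds, error of a species mean or depth can be given. Which of both alignments gave each value is not given in the sources used here, so a ratio between ducks and chicken also reflects how each gene is annotated.

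Correlations with *PIEZO2* (Pearson's *r*, Spearman's rho) used RPKM across species. Ratios of ducks to chicken are log2(RPKM + 1) of the duck mean minus that of chicken. Background shares cover genes averaging at least 1 RPKM. A gene can reach that mean through ducks or through chicken alone, which bears on its direction, in the lists and in the background alike. Sizes of 0.9 for *r* and 2-fold for ratios were used as marks, not tests, and a value was called moved at a shift of 0.1 or more, since the table gives no spread. Genes named in the text are *PIEZO2*, every IRF and IRF2-binding protein row, the 5 genes of highest *r* with *IRF1*, and from each list those past a mark (at most 4) and the 3 of highest level. Some genes under this rule are not reported here. *PTPRC*, *SPI1* and *LY86* were named after their values were seen. The members and gene lists were chosen with earlier results of these data known. Alternatives were the log2 scale, ranks, ducks alone, each duck left out, chicken and harlequin duck left out, median-ratio scaling over 10053 genes, quantile normalization, a pseudocount of 0.1, the median of the ducks and other filters. For the lists, leaving out ruddy duck, scaling and genes in both annotations were added after seeing the data. Of the 6 duck gene IDs, 5 matched the same symbol in RefSeq's duck table, whose assembly differs, so no coordinates are given. Code (Python 3.11.15, pandas 2.3.3, numpy 2.4.6, matplotlib 3.10.9) was tested on simulated data.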

Additional observations from a re-analysis of the deposited data

Results flagged for a closer look

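Among the 6 ducks, *IRF8* in wood duck lay far from the rest. The gap between wood duck, at 2.98 RPKM, and the next duck, Pekin duck at 1.99 RPKM, was 0.642 of the whole range of the ducks, over Dixon's critical value for 6 values. Of 7 genes looked at in this way, *PIEZO2* and the 6 factors, it was 1, and chance gives about 1 in 20 groups such a gap. The *IRF2* level was also highest among the ducks in wood duck, at 6.85 RPKM, though within that value.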

How the results depend on the processing

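The *r* of *IRF1* with *PIEZO2* stayed positive under 12 of 12 alternatives, from 0.896 after quantile normalization to 1 by rank, and was 0.98 to 1.00 with each duck left out. Among the ducks after quantile normalization, a combination outside those 12, it was 0.79, with a rho of 0.60. All alternatives reuse the same 7 means, and the factors were chosen with such correlations seen. A sign that they keep is therefore no added support. The count of other factors past an *r* of 0.9 in size was 0 to 1 with each duck left out (1 without harlequin duck, when *IRF8* reached -0.95). The log2 ratio of *IRF1* was 1.39 with a pseudocount of 0.1, 0.89 after median-ratio scaling, 1.17 after quantile normalization and 0.94 to 1.07 with each duck left out. The count of factors past 2-fold, 1 as reported, was 4 with a pseudocount of 0.1 and 2 with the median of the ducks, with median-ratio scaling and with quantile normalization. With median-ratio scaling the factor added to *IRF8* was *IRF2*, at -1.08, and with the median of the ducks or quantile normalization it was *IRF1*. With each duck left out the count was 1 to 2 (2 without ruddy, wood or harlequin duck), because *IRF1* lies at the mark itself. The *r* of *IRF8* was negative in 12 of 12 alternatives and that of *IRF4* positive in 12 of 12, while that of *IRF2*, *IRF5* and *IRF7* took both signs. By rank among the ducks, a combination outside those 12, *IRF8* had a rho of 0.09, so its sign was not kept there. Median-ratio scaling moved the median log2 ratio of all genes to 0.06, against 0.22 as deposited. Among the lists, genes higher in ducks numbered 4 without ruddy duck and 1 after scaling for the induced genes (2 as reported), and genes lower in ducks after scaling numbered 3 for NF-kB (1 as reported) and 2 for the sensors (1 as reported). The share of all genes past 2-fold was 24.5% with no filter and 32.4% as reported. No paired analysis was possible because the table holds species means. The number of 7 points, related to each other and without errors, limits all correlations.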

Other observations

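Some receptors below the mean of 1 RPKM, picked after their values were seen, had a split like that of *IRF8*. *TLR7*, a sensor of single-stranded RNA in immune cells, had 0.376 RPKM in Pekin duck, 0.443 in lesser scaup, 0.287 in black duck, 0.398 in ruddy duck, 0.420 in wood duck and 0.327 in harlequin duck, against 2.30 RPKM in chicken. *TLR4*, the sensor of bacterial lipopolysaccharide, had 0.167 to 0.394 RPKM in ducks and 1.48 RPKM in chicken. Both stand in both annotations. Their *r* with *IRF8* over the 7 species was 1.00 for *TLR7* and 0.99 for *TLR4*, with chicken highest for all 3 genes, so the chicken point largely sets both values. A chicken value above all 6 ducks was found for 32.9% of genes above 0 in any species. Of the other Toll-like receptors listed, *TLR21* was also highest in chicken, while chicken lay within the duck range for *TLR5* and *TLR15*. *TLR3* went the other way, at 1.75 to 2.81 RPKM in ducks and 0.888 RPKM in chicken.

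Several classical interferon-induced genes, picked after their values were seen, were close to 0 in ducks in rows from the chicken annotation alone. Of the 28 interferon- and *IRF1*-induced genes, chicken lay above all 6 ducks for 11, beside 32.9% of genes above 0 in any species. *MX1* had 0 to 0.506 RPKM in ducks and 2.53 RPKM in chicken, *OASL* 0 to 0.0210 RPKM in ducks and 2.48 RPKM in chicken, and *TAPBP* is listed at 0 in all 6 ducks, with 2.82 RPKM in chicken. *STAT2*, also in the chicken annotation alone, had 0.110 to 0.347 RPKM in ducks and 2.42 RPKM in chicken. For these rows the annotation and the RNA cannot be told apart. *IFI6*, which stands in both annotations, had 0 to 0.130 RPKM in ducks and 3.37 RPKM in chicken. Other rows in both annotations did not share that split. *TAP2* had 0.105 to 0.806 RPKM in ducks and 0.374 RPKM in chicken, and *CIITA* had 0.199 to 0.840 RPKM in ducks and 0.0770 RPKM in chicken. All rows named in this paragraph averaged below 1 RPKM.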
